A study of Mus musculus with 10 samples.

Results

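Long CpG islands are described here as autosomal clusters of more than 10 array probes, in which neighbouring probes start at most 500 bp apart. Of the 15538 clusters on the array, 1188 met this rule. They hold 16670 of the 88411 probes with a position. They were compared mainly with the 12256 shorter autosomal regions of 3 to 10 probes. Another 37 clusters of more than 10 probes lie off the autosomes and were not counted as members.

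DNA methylation was profiled in the left hemibrain of male C57BL/6j mice by methylated DNA immunoprecipitation on a microarray (MeDIP-chip). An antibody against 5-methylcytosine enriches methylated fragments, and the enriched DNA (IP, labelled with Cy5) is hybridised together with total input DNA (Cy3). All groups were of 1 inbred strain and sex, and each was fed 1 of 3 diets designed to hold equal calories, for 24 weeks from an age of 3 weeks. The diet enriched in n-3 polyunsaturated fatty acids (ERD, n-3:n-6 of 7:1) had 4 arrays and the balanced diet (BLD, 1:1) had 3. The standard diet (STD, 1:6), taken here as the reference, had 3. The sample titles of all 3 diets carry the word CONTROL. The labels name no transgene or deletion in any group. A hemibrain mixes all its cell types, whose shares cannot be told from these values. Titles carry separate identifiers but do not state separate animals, so p-values cover the spread between these samples, which may in part be technical.

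CpG islands are stretches of DNA in which CpG dinucleotides are dense, and many of them overlie promoters. Most islands at active or poised promoters are kept free of methylation in normal tissues, while those of imprinted or germline genes can be methylated. Long islands are often found at genes that regulate development, and the sequence flanking an island, its shore, holds fewer CpGs and is more often methylated. Antibody enrichment depends on the number of methylated CpGs in a fragment, so the ratio is not a percentage of methylation.

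The value of a region is the log2 ratio of IP over input, set relative to the median of all probes of its array and averaged over the region's probes. A value of 0 is therefore the level of the typical probe of the array, not an absence of methylation. Ratios of different probes also carry each probe's own hybridisation and dye response, since no array had its dyes swapped. Differences between probe positions or between classes of regions are therefore descriptions, whereas the diets are compared on the same probes.

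Between 76.4% (STD replicate 3) and 94.7% (ERD replicate 2) of all probes were well above background in both channels, and between 76.7% and 94.9% of the probes in long islands were. Over the long islands, arrays of ERD correlated with each other at a mean r of 0.755 and those of BLD at 0.789. Arrays of STD correlated at 0.503. STD replicate 3 had the lowest mean correlation with the other arrays, at 0.453, followed by STD replicate 1 at 0.523. The arrays lie on 5 slides, of which only 1 holds arrays of more than 1 diet (BLD replicate 3 and STD replicate 1). ERD shared no slide with another diet, so differences of ERD from the other diets cannot be told apart from differences between slides.

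The long islands had 11 to 40 probes, with a median of 13, and spanned 915 to 5401 bp, with a median of 1662.5 bp. Starts of neighbouring probes were a median of 116 bp apart. The shorter regions had a median of 5 probes and 609 bp. At the lower limit of the rule lay 332 islands of exactly 11 probes, and 453 regions of exactly 10 probes fell just outside it. Long islands made up 8.84% of the autosomal regions of at least 3 probes. Their share was highest on chromosome 12, at 11.95%, and chromosome 18, at 11.9%, and lowest on chromosome 1, at 6.08%. Long islands stood farther from the next cluster than shorter regions did, with a median gap of 28638.5 bp against 21752.5 bp. A neighbouring cluster within 2000 bp was about as frequent, at 13.8% of the long islands and 13.3% of the shorter regions.

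Most long islands lay below the level of the typical probe. Averaged over diets, their level ran from -0.64 to 0.80 with a median of -0.089, and the middle 50% lay between -0.19 and 0.0091. Shorter regions had a median of -0.043 and ran more widely, from -0.95 to 1.13. Of the 1188 long islands, 323 (27.2%) had a ratio under the median on each of the 10 arrays, against 15.2% of the shorter regions. That share was 11.1% in regions of 3 to 5 probes and 20.7% in those of 6 to 10. In long islands of 11 to 15 probes it was 28.1%, and in those of 16 to 20 it was 24.5%. Means over more probes also vary less, and the part of this in the share was not tested. Only 50 long islands (4.21%) lay above the median on all 10 arrays, against 8.56% of the shorter regions. Levels above 0.3 were reached by 41 long islands (3.45%) and by 10.5% of the shorter regions. Levels below -0.3 were reached by 82 (6.90%) and by 9.27%. Long islands were thus gathered in the band just below 0, where 786 of them (66.2%) lay between -0.3 and 0.

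The median of long islands was below that of shorter regions on every array. The 4 ERD arrays gave differences of -0.052, -0.074, -0.049 and -0.076. The 3 BLD arrays gave -0.063, -0.046 and -0.040, and the 3 STD arrays -0.026, -0.047 and -0.034. The mean over arrays was -0.051. Normexp background correction starts from the median spot signals, subtracts the local background, models the remainder and adds an offset of 50. With it, the difference was -0.0077. It was then above 0 on ERD replicates 1 and 3 and STD replicate 1.

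**Figure D1:**
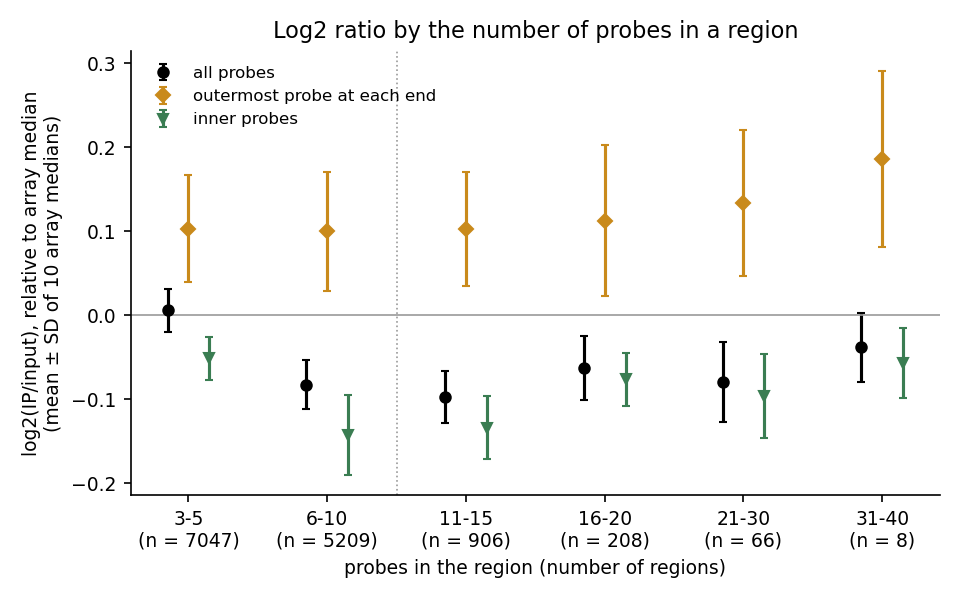
Median log2 ratio of IP over input relative to the array median, by the number of probes in a region, for all probes, the outermost probe at each end and the inner probes. Points and bars are the mean and SD of 10 array medians, and the dotted line marks the limit above which a region counts as a long island. The outermost probes lie near 0.10 up to 15 probes, while the inner probes lie below 0 in every class.

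The level did not fall steadily with length. Regions of 3 to 5 probes had a mean of array medians of 0.0060 ± 0.026 (SD, n = 10 arrays) and regions of 6 to 10 probes -0.082 ± 0.029. Long islands of 11 to 15 probes lay at -0.097 ± 0.031. Those of 16 to 20 probes lay at -0.062 ± 0.038, those of 21 to 30 at -0.080 ± 0.048, and the 8 of 31 to 40 probes at -0.038 ± 0.041. Regions just below and just above the limit were close, at -0.091 for 10 probes and -0.112 for 11. Within the long islands the level had almost no linear relation to the number of probes (r = 0.089 over 1188 islands that share the same arrays). Its r with length was 0.097, and with the brightness of the input signal -0.018.

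The probes of a long island differed by position. The outermost probe at each end had a higher ratio than the probes inside, and the step lay between the first and the second probe. Counted from the nearer end, the mean of the 10 array medians was 0.12 at the outermost probe (2376 probes) and -0.048 at the second. It was -0.065 at the third, -0.073 at the fourth and -0.077 at the fifth. Farther inside it rose slowly, to -0.043 at the seventh and -0.030 at the ninth, which only longer islands have. The elevation of the ends was therefore confined, in these medians, to 1 probe per end.

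**Figure D2:**
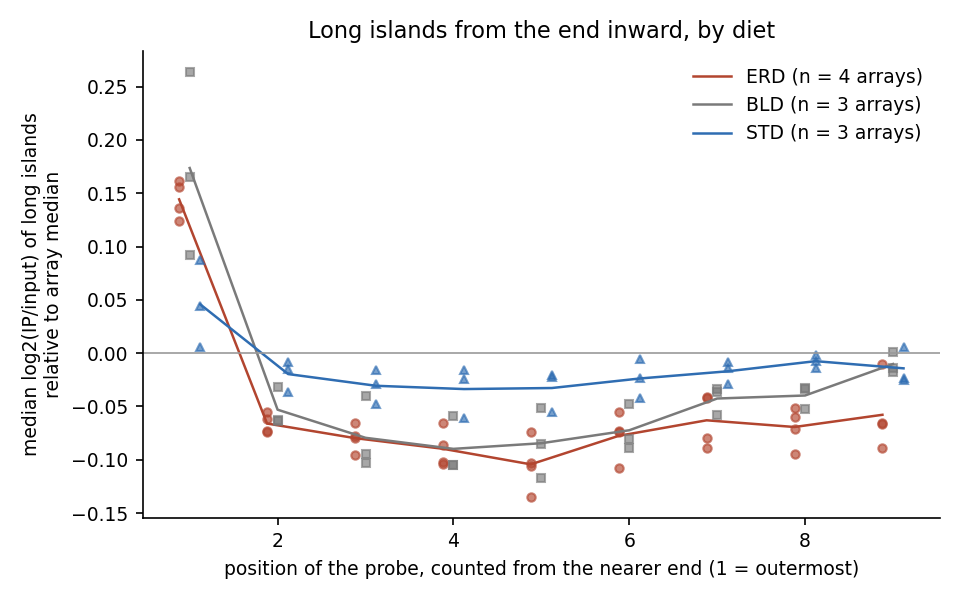
Median log2 ratio of the probes of long islands by their position from the nearer end, relative to the array median. Symbols are single arrays and lines are diet means. The outermost probe averages 0.14 in ERD, 0.17 in BLD and 0.046 in STD, and all 3 diets lie below 0 from the second probe to the eighth.

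The outermost probes also differed in brightness and length. Their input signal was 0.65 lower on the log2 scale than the array median (-0.65, with arrays between -0.87 and -0.37), while that of the inner probes was 0.089 above it. Their IP signal was at -0.48 against 0.030. They were well above background in 78.4% of cases, against 88.6% for the inner probes. They were slightly longer, with a mean of 48.6 nucleotides against 46.2. Input and IP signals are the parts of the ratio, so their levels restate it in part. The ratio was therefore also read at like input brightness, as a description, since the input is its denominator.

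All probes of the long islands were split into 4 classes of equal size by their mean input signal. The outermost probes made up 24.1% of the dimmest class and 8.93% of the brightest. In the dimmest class their median ratio was 0.17 and that of the inner probes 0.020. In the second class the values were 0.12 and -0.11, in the third 0.071 and -0.12, and in the brightest 0.10 and -0.017. The outermost probes were higher by 0.15, 0.23, 0.19 and 0.12, in this order. They were higher on all 10 arrays in each class but the dimmest, where they were higher on 9. With normexp background correction the difference nearly vanished: the outermost probes then lay at 0.031 and the second probes at -0.013.

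The outermost probes had similar ratios at every distance to the next probe. Outermost probes whose neighbour started within 100 bp had a mean of array medians of 0.13 ± 0.076 (SD, n = 10 arrays). Those with a neighbour at 100 to 150 bp lay at 0.12 ± 0.073 and those at 150 to 250 bp at 0.14 ± 0.079. The 131 probes with a neighbour beyond 250 bp lay at 0.11 ± 0.060. At 701 islands (59.0%) both ends lay above the mean of the inner probes, at 410 (34.5%) only 1 end did, and at 77 (6.48%) neither did. The heights of the left and the right end were almost unrelated across islands (r = 0.049). At 235 islands (19.8%) the mean of both ends was above the inner probes on all 10 arrays, and at 8 islands (0.673%) it was below them on all 10.

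Every region has 2 outermost probes, so they make up a larger share of a shorter region. Compared by inner probes alone, the long islands were lower than the shorter regions by a mean of -0.022, and BLD replicate 2 went the other way at 0.034. Within the shorter regions only those of 3 to 5 probes were higher, at -0.051. Regions of 6 to 10 probes lay at -0.143 ± 0.047 (SD, n = 10 arrays). Long islands lay at -0.134 ± 0.038 for 11 to 15 probes, within that spread. They lay at -0.076 for 16 to 20 probes, -0.096 for 21 to 30 and -0.057 for 31 to 40. The islands of exactly 11 probes alone lay at -0.157 ± 0.050, below the regions of 6 to 10. Compared by outermost probes alone, the difference was 0.00419, with arrays from -0.018 to 0.027. By inner probes, 380 long islands (32.0%) lay below the median on all 10 arrays, against 20.4% of the shorter regions. By outermost probes, 123 (10.4%) lay above it on all 10, close to the 10.7% of the shorter regions.

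How far the ends stood out went with the level of the island. In the 82 islands below -0.3 the outermost probes were higher than the inner ones by 0.33. The difference was 0.25 in the 786 islands between -0.3 and 0, and 0.13 in the 279 between 0 and 0.3. In the 41 islands above 0.3 it was -0.080, so there the ends were the lower part. The classes were formed from the same probes, so this is a description of shape.

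The difference between ends and interior was present on every array. On the ERD arrays the outermost probes of the islands had medians of 0.13, 0.14, 0.10 and 0.096, and the inner probes -0.14, -0.16, -0.14 and -0.16. On the BLD arrays the outermost probes lay at 0.13, 0.27 and 0.088 and the inner ones at -0.16, -0.087 and -0.089. On the STD arrays the outermost probes lay at 0.0093, 0.073 and 0.029 and the inner ones at -0.066, -0.12 and -0.087. STD had the lowest ends and BLD replicate 2 the highest.

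**Figure D3:**
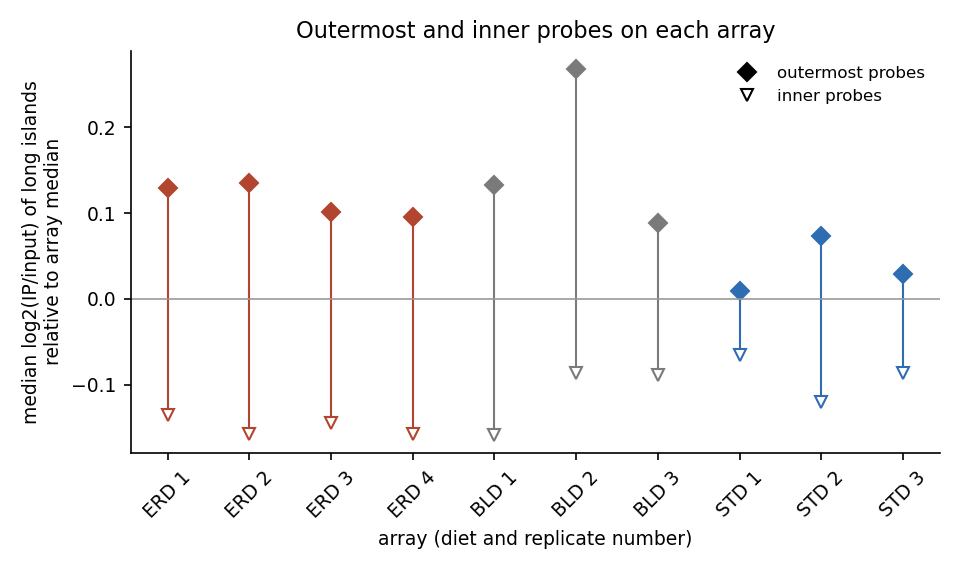
Median log2 ratio of the outermost and of the inner probes of the 1188 long islands on each array, relative to the array median and coloured by diet. The outermost probes are above the inner ones on all 10 arrays, and the inner ones lie below 0 throughout. The outermost probes lie at 0.096 to 0.14 in ERD and at 0.0093 to 0.073 in STD.

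The outermost probes exceeded the inner ones of the same island by a median of 0.25 ± 0.022 in ERD (SD, n = 4), with arrays from 0.23 to 0.27. In BLD the excess was 0.25 ± 0.089 (SD, n = 3), from 0.15 to 0.32, and in STD 0.12 ± 0.052 (SD, n = 3), from 0.065 to 0.17. The arrays of ERD and STD did not overlap, whereas those of BLD overlapped with both. On the only slide shared by 2 diets, BLD replicate 3 had 0.15 and STD replicate 1 had 0.065. With only probes well above background on all arrays, ERD still lay above STD, at 0.21 to 0.23 against 0.075 to 0.16. With the arrays scaled to 1 spread of values, ERD lay at 0.20 to 0.22 and STD at 0.075 to 0.19. Under normexp the diets overlapped and arrays of either sign occurred, from -0.097 to 0.12 in ERD and from -0.095 to 0.20 in STD. The spread of all probes moved with the diets as well. The interquartile range of the probe ratios was 0.61 to 0.79 on the ERD arrays and 0.38 to 0.53 on the STD arrays. On the BLD arrays it was 0.38 to 0.74. The part of this spread in the excess was not tested beyond the scaling.

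Within an island, probes were related but far from uniform. Directly neighbouring probes correlated at r = 0.28 (15482 pairs, values averaged over arrays), probes 3 steps apart at 0.21 and probes 8 steps apart at 0.13. Only the inner probes gave 0.29, 0.24 and 0.16. These pairs share arrays and often sequence context, and the coefficients are descriptive. The SD between the probes of an island had a median of 0.31 and ran from 0.11 to 0.70. The SD between the means of the islands was 0.18. Differences between islands made up 24.4% of the variance of the probes.

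The islands with the most probes did not stand out by level. The largest, with 40 probes over 5401 bp (chr11:120094109-120099509, mm9), had values of 0.083, 0.013, -0.15 and -0.10 in ERD. It had 0.078, 0.20 and -0.0071 in BLD and -0.022, 0.025 and -0.016 in STD. The diets overlapped, and its probes ran from -0.57 to 0.67. The next, with 39 probes (chr5:33772994-33778243), averaged -0.064 ± 0.032 in ERD (SD, n = 4). It averaged -0.047 ± 0.099 in BLD and -0.015 ± 0.098 in STD (SD, n = 3 each). An island of 36 probes on chromosome 14 (chr14:22804113-22808996) began with 7 probes between 0.29 and 0.69, whereas most of the rest lay lower.

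The other island of 36 probes (chr8:94879507-94884802) was the most even between replicates of these large islands. Its values were -0.20, -0.20, -0.18 and -0.16 in ERD, -0.0060, 0.0099 and -0.024 in BLD, and -0.072, -0.032 and -0.059 in STD. ERD lay below every array of the other diets. The means were -0.18 ± 0.018 in ERD (SD, n = 4), -0.0066 ± 0.017 in BLD and -0.055 ± 0.020 in STD (SD, n = 3 each). It was not among the islands with the lowest p in any comparison.

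The highest long islands were high in their interior, and their outermost probes averaged less than their inner ones. They were chosen by the mean of the same probes, most of them inner, so this too is a description of shape. The island of highest level (chr6:48387919-48389354, 13 probes) lay at 0.80 on average. Its values were 0.52, 1.48, 0.42 and 1.22 in ERD, 1.04, 0.79 and 0.45 in BLD, and 0.47, 1.40 and 0.33 in STD. Replicates differed by about as much as the level itself, and the diets overlapped. Its first and last probes lay at 0.096 and 0.42, and every probe between them at 0.66 to 1.15.

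The 3 islands next in level were an island of 14 probes (chr7:52262461-52263935) at 0.76 and 2 of 11 probes (chr5:131915292-131916588 and chr8:72975528-72976640) at 0.75 and 0.74. ERD replicate 2 was the highest array at all 4 of these islands, with 1.28 to 1.56. STD replicate 3 was the lowest, with 0.26 to 0.33. At none of the 4 islands did the arrays of the diets separate. On chromosome 5 the inner probes ran from 0.11 to 1.31, and on chromosome 8 from 0.50 to 1.05.

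**Figure D4:**
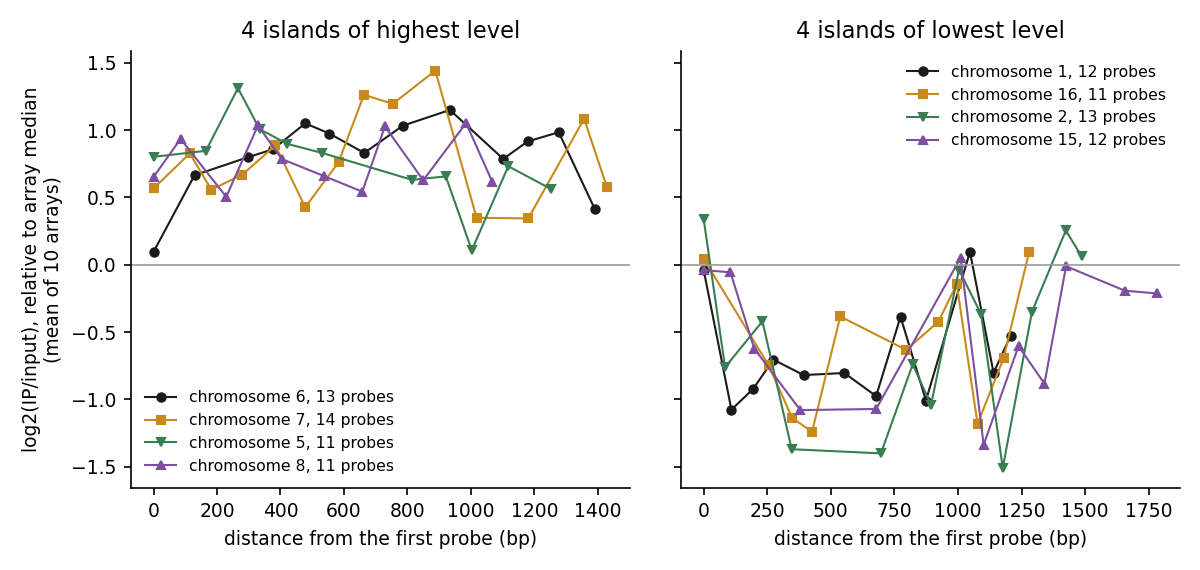
Log2 ratio of each probe along the 4 long islands of highest and the 4 of lowest level, averaged over the 10 arrays and relative to the array median, against the distance from the first probe. The island of highest level goes from 0.096 at its first probe to 1.15 inside, and the lowest goes from -0.041 to -1.08 within its first 2 probes.

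The lowest long islands, chosen in the same way, had ends mostly near the typical probe and a deep interior. The lowest (chr1:193398739-193399990, 12 probes) averaged -0.64. Its values were -0.71, -0.88, -0.99 and -0.84 in ERD, -0.79, -0.72 and -0.51 in BLD, and -0.47, -0.46 and -0.25 in STD. Its first probe lay at -0.041 and the second at -1.08, and the low run was broken by a probe at 0.096 near the other end. The next lowest (chr16:11253448-11254780, 11 probes) averaged -0.59. Its outermost probes lay at 0.044 and 0.096 and its inner probes at -0.14 to -1.24.

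An island of 13 probes (chr2:76244107-76245652) at -0.55 and an island of 12 (chr15:36537705-36539544) at -0.50 completed the 4 lowest. Their inner probes reached -1.51 and -1.34. Both were negative on every array, from -0.80 to -0.26 on chromosome 2 and from -0.66 to -0.38 on chromosome 15.

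In the islands with the widest spread, high and low probes alternated. The widest (chr1:95374821-95376080, 11 probes) had an SD between probes of 0.70. Its probes went from -1.52 at the third to 0.62 at the fifth and back to -1.45 at the seventh. An island on chromosome 9 (chr9:55393223-55394588, 12 probes) had an SD of 0.66 and probes between -1.58 and 0.85. The third (chr6:49213119-49214320, 11 probes) had an SD of 0.64, and its last probe, at 1.04, was its highest.

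The diets were compared with limma over all 13835 regions of at least 3 probes, with Benjamini-Hochberg adjustment at 0.05. The pairwise comparisons share arrays, so their results are given side by side. No long island passed in any of them, and in all 13835 regions 0 passed (0.0%) for ERD against STD, BLD against STD and ERD against BLD. A fit of the level on the dietary ratio of n-3 to n-6, log2-transformed, called 6 of all regions (0.0434%) and 0 long islands. With the slide as a random block, this fit called 0 of all regions. Without the block, the lowest adjusted p (limma) among the long islands was 0.156 for ERD against STD and 0.440 for BLD against STD. It was 0.452 for ERD against BLD and 0.162 for the trend. The counts that follow are at an unadjusted p under 0.05 and are not calls.

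In ERD, 32 long islands (2.69%) were higher than in STD and 101 (8.5%) were lower at that level. Among all regions these shares were 7.68% and 8.02%, so the lower side was near the background and the higher side below it. Between BLD and STD, 43 (3.62%) were higher and 32 (2.69%) lower in BLD, with 7.31% and 3.89% in all regions. Between ERD and BLD, 12 (1.01%) were higher and 66 (5.56%) lower in ERD, with 3.48% and 6.71% in all regions. Along the trend, 29 (2.44%) had a positive slope and 102 (8.59%) a negative one, with 7.09% and 7.94% in all regions.

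These counts depended on single arrays and on the processing. So did the counts over all regions, given in brackets (of 13835 unless stated). Without STD replicate 3, the counts for ERD against STD were 12 higher and 56 lower (558 and 634). Those for the trend were 10 and 55 (488 and 683). Without ERD replicate 2 the higher counts were 17 for both (855 and 690). The counts for BLD against STD were 14 and 6 without BLD replicate 1 (472 and 142). They were 9 and 15 without BLD replicate 2 (429 and 322), and 75 and 75 without BLD replicate 3 (1526 and 1064). They were 27 and 24 without STD replicate 1 (706 and 336), and 19 and 15 without STD replicate 3 (706 and 343). The counts for ERD against BLD were 7 and 26 without ERD replicate 3 (404 and 639), and 11 and 18 without BLD replicate 2 (433 and 500). They were 3 and 42 without BLD replicate 1 (206 and 696), and 22 and 51 without BLD replicate 3 (652 and 977). Under normexp, ERD against STD turned to 16 higher and 7 lower (802 and 404). With arrays scaled to 1 spread it was 38 and 48 (1119 and 758). With probes well above background on all arrays, BLD against STD went to 5 higher and 88 lower (316 and 1073 of 13415). Quantile normalization gave 35 and 68 (1015 and 950), and loess 32 and 54 (776 and 674). ERD against BLD went to 38 higher and 26 lower with well above background probes (997 and 541 of 13415). It had 21 and 10 with quantile normalization (607 and 492), and 18 and 22 with loess (603 and 556). Under normexp it had 0 in either direction (67 and 0), and BLD against STD had 0 higher and 12 lower (117 and 380).

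The size of the differences was small. The median long island was lower in ERD than in STD by -0.030, while the median over all regions was 0.0033, and 40.7% of the long islands were higher in ERD. For BLD minus STD the median was 0.010 against 0.030 in all regions. For ERD minus BLD it was -0.040 against -0.026, and 34.3% were higher in ERD. The median standard error of the ERD minus STD difference was 0.0998 in long islands and 0.123 in shorter regions. The direction of the median for ERD minus STD turned with normexp background correction, to 0.060, and with scaling to 1 spread, to 0.0092.

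Arrays of ERD and STD did not overlap at 57 long islands with ERD higher (4.80%, against 7.24% of all regions). They did not overlap at 163 with ERD lower (13.7%, against 9.01%). Arrays of BLD and STD did not overlap at 146 with BLD higher (12.3%, against 11.1%) and at 89 with BLD lower (7.49%, against 6.27%). For ERD and BLD the counts were 25 higher in ERD (2.10%, against 3.32%) and 115 lower (9.68%, against 6.79%). In the main setting, the surplus over the background was thus on the side of lower values in ERD. None of these islands passed the adjusted threshold. Such counts are given for the main setting only, and the direction of the median difference depended on the processing. With normexp, 71.7% of the long islands were higher in ERD than in STD, and 82.3% higher than in BLD. ERD minus STD was also positive with scaling (0.0092), and ERD minus BLD with probes well above background (0.0085). With loess and quantile normalization the medians stayed negative.

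The median differences of ERD and BLD from STD were positive at the ends of the long islands and negative in the interior. For ERD minus BLD both were negative, at -0.044 and -0.037. At the outermost probes, 116 islands (9.77%) were higher in ERD than in STD and 37 (3.12%) lower at an unadjusted p under 0.05, against 10.9% and 4.01% of all regions. At the inner probes, 22 (1.85%) were higher and 111 (9.34%) lower, against 5.06% and 10.7%. ERD minus STD had a median of 0.090 at the outermost probes and -0.047 at the inner ones. Over all regions these medians were 0.097 and -0.034. For BLD against STD the outermost probes had 143 islands (12%) higher and 22 (1.85%) lower, against 11.4% and 1.91%. Their median difference was 0.12, and that of the inner probes -0.013. Over all regions these medians were 0.13 and -0.023. At the inner probes 25 islands (2.1%) were higher in BLD and 38 (3.2%) lower, against 4.07% and 6.1%. Inner probes of BLD and STD did not overlap at 117 islands with BLD higher (9.85%, against 7.47%). They did not overlap at 105 with BLD lower (8.84%, against 8.57%), so the interior of BLD had no clear direction. This imbalance at the ends was lost under normexp. ERD against STD then had 101 higher (8.51%) and 98 lower (8.26%), against 8.94% and 7.58% of all regions. BLD against STD had 43 (3.62%) and 45 (3.79%), against 3.67% and 3.67%. With probes well above background on all arrays, ERD had 66 (8.18%) and 60 (7.43%) among 807 islands, against 9.62% and 7.17%. BLD had 42 (5.2%) and 32 (3.97%), against 4.97% and 4.4%. In the main setting the shares at the ends of the long islands were near those of all regions.

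The difference between ends and interior was also fitted itself, as outermost minus inner probes per island. It was larger in ERD than in STD at 117 long islands (9.86%) and smaller at 23 (1.94%) at an unadjusted p under 0.05, with 10.7% and 3.0% in all regions. For BLD against STD the counts were 114 (9.60%) and 16 (1.35%), with 10.7% and 1.99%. None passed the adjustment, and the lowest adjusted p (limma) among the long islands was 0.144 and 0.263. After normexp the counts for ERD against STD were 72 (6.07%) and 49 (4.13%), with 5.89% and 6.64% in all regions, and the lowest adjusted p (limma) was 0.395.

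The direction of the difference between ERD and STD followed the level of the island in BLD, whose arrays enter neither side. Of the 58 long islands above 0.3 in BLD, 56 were higher in ERD than in STD, with a median difference of 0.29. Of the 346 between 0 and 0.3, 231 were higher and 115 lower. Of the 673 between -0.3 and 0, 186 were higher and 487 lower, with a median of -0.064. Of the 111 below -0.3, 11 were higher and 100 lower, with a median of -0.16. In the highest class the median level was 0.59 in ERD and 0.25 in STD, and in the lowest it was -0.38 and -0.20. STD was thus closer to 0 at both extremes. The wider spread of probe ratios on the ERD arrays, given above, moves with this pattern, and its part was not tested. The split was made for long islands only, so it does not show whether the pattern is particular to them.

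The island with the lowest p for ERD against STD among those higher in ERD lies on chromosome 2 (chr2:84726423-84728517, 15 probes over 2095 bp). Its values were 0.36, 0.51, 0.37 and 0.39 in ERD, 0.50, 0.40 and 0.17 in BLD, and -0.11, -0.0048 and -0.038 in STD. Every array of ERD and BLD lay above every array of STD. The difference was 0.46 ± 0.099 (SE) for ERD and 0.41 ± 0.105 (SE) for BLD against STD. The adjusted p (limma) was 0.156 and 0.440, and ran from 0.0835 to 0.638 over the alternatives for ERD against STD. Its inner probes lay at 0.45 in ERD and -0.020 in STD, and its outermost probes at 0.13 and -0.26. It was also the first by p among the positive slopes of the trend, at 0.082 ± 0.021 (SE) per doubling of the n-3:n-6 ratio.

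A second island on chromosome 2 (chr2:173410946-173412429, 11 probes) was high in all diets. It had 0.99, 1.12, 0.72 and 0.60 in ERD, 1.08, 0.82 and 0.42 in BLD, and 0.23, 0.27 and 0.15 in STD. STD was again below all other arrays, and the difference of ERD from STD was 0.64 ± 0.16 (SE; adjusted p = 0.181, limma). Only 54.5% of its probes were well above background on the weakest array, and the difference turned to -0.062 under normexp.

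An island of 16 probes on chromosome 11 (chr11:51669754-51671916) had 0.27, 0.28, 0.27 and 0.19 in ERD, 0.17, 0.38 and 0.0079 in BLD, and -0.17, -0.089 and -0.11 in STD. An island of 13 probes on chromosome 2 (chr2:35436926-35438686) had 0.28, 0.29, 0.15 and 0.40 in ERD, 0.29, 0.33 and 0.12 in BLD, and -0.14, 0.0063 and -0.0091 in STD. STD lay below all 7 other arrays at both. Their differences between ERD and STD were 0.38 ± 0.099 and 0.33 ± 0.096 (SE).

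**Figure D5:**
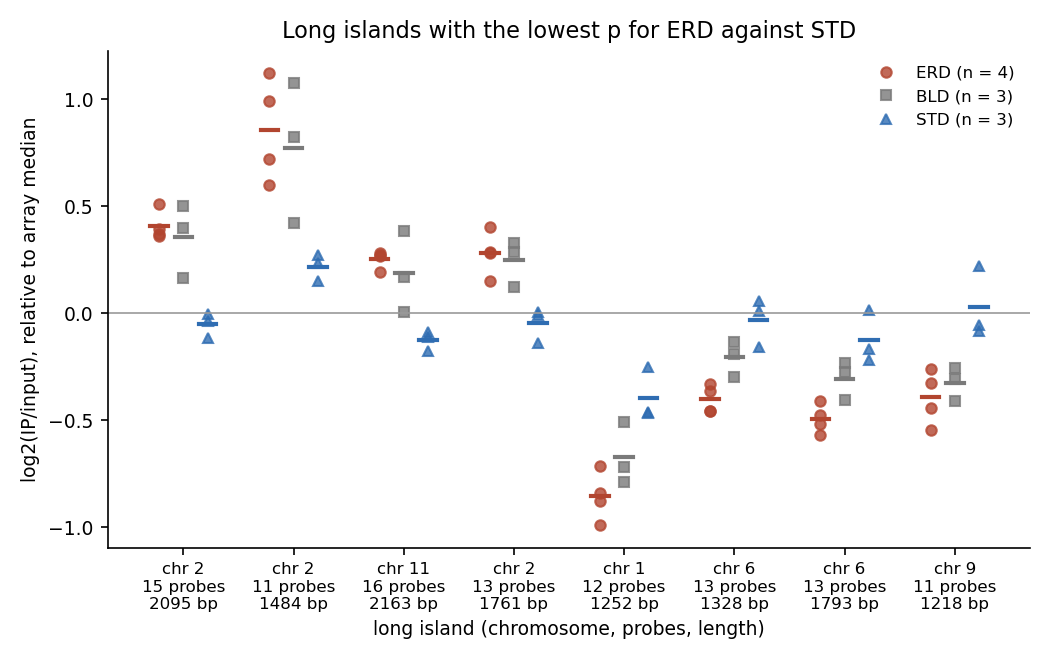
Log2 ratio on each array, relative to the array median, of the 4 long islands higher and the 4 lower in ERD than in STD with the lowest p. Horizontal bars are diet means, and the islands are named by chromosome, probe number and length. Arrays of ERD and STD do not overlap at any of the 8 islands, which follows largely from choosing them by p. None passed the adjusted threshold.

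Among the islands lower in ERD, the first by p was the lowest island of all (chr1:193398739-193399990), with the values given above. It differed by -0.46 ± 0.106 (SE; adjusted p = 0.180, limma). An island of 13 probes on chromosome 6 (chr6:118146607-118147934) had -0.46, -0.33, -0.45 and -0.36 in ERD, -0.19, -0.30 and -0.13 in BLD, and -0.16, 0.058 and 0.011 in STD. The mean of BLD, at -0.21 ± 0.083 (SD, n = 3), was intermediate. Its difference between ERD and STD was -0.37 ± 0.091 (SE) and was 0.0085 with normexp background correction.

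Another island of 13 probes on chromosome 6 (chr6:52183340-52185132) had -0.48, -0.57, -0.52 and -0.41 in ERD, -0.41, -0.28 and -0.23 in BLD, and -0.22, 0.014 and -0.17 in STD. The lower values of ERD lay inside the island, at -0.60 against -0.11 in STD. Its outermost probes were at 0.074 in ERD and -0.18 in STD. On its weakest array only 46.2% of its probes were well above background. An island of 11 probes on chromosome 9 (chr9:111173526-111174743) had -0.26, -0.44, -0.33 and -0.54 in ERD, -0.41, -0.26 and -0.31 in BLD, and -0.081, -0.053 and 0.22 in STD. There both ERD and BLD lay below all arrays of STD.

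In the comparison of BLD with STD, the first islands on the higher side were again those at 84726423 and 173410946 on chromosome 2. An island of 15 probes on the same chromosome (chr2:168590471-168592693) had 0.38, 0.48 and 0.10 in BLD, -0.014, -0.11 and 0.010 in STD, and 0.29, 0.34, 0.21 and 0.12 in ERD. An island of 16 probes on chromosome 6 (chr6:71582027-71583694) had 0.31, 0.31 and 0.044 in BLD and -0.039, -0.12 and -0.15 in STD. Its outermost probes averaged 1.16 and its inner ones -0.12. BLD replicate 3 was the lowest of its diet at both and the nearest to STD.

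On the lower side, an island of 13 probes (chr2:129625984-129627751) had -0.81, -0.55 and -0.24 in BLD and -0.073, -0.13 and -0.14 in STD. ERD, at -0.53 ± 0.026 (SD, n = 4), was close to the mean of BLD. An island of 16 probes (chr5:77738091-77739887) had -0.85, -0.58 and -0.24 in BLD and -0.055, -0.21 and -0.063 in STD. An island of 11 probes (chr8:81032362-81033750) had -0.65, -0.47 and -0.15 in BLD and 0.0024, -0.092 and -0.090 in STD. The fourth was the island on chromosome 9 named above. At the first 3 of these, BLD replicate 1 was farthest from STD and BLD replicate 3 nearest.

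The adjusted p (limma) was 0.440 for each of these islands, and ran up to 0.99994 over the alternatives. With the slide as a fixed block, which rests on the 1 slide with both diets, 0 long islands were higher and 1 was lower at an unadjusted p under 0.05. On that slide alone the median difference between BLD and STD was -0.0046.

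Between ERD and BLD, the largest of the named islands was 1 of 23 probes on chromosome 18 (chr18:9212093-9214977). It had -0.43, -0.28, -0.30 and -0.25 in ERD, 0.023, -0.092 and -0.084 in BLD, and -0.13, -0.017 and -0.12 in STD. ERD lay below the other 6 arrays, with a difference from BLD of -0.26 ± 0.087 (SE; adjusted p = 0.452, limma). The difference was 0.0091 under normexp. The other 3 lower islands (chr14:13177168-13178858, chr11:94937282-94938562 and chr12:34641745-34643528) differed by -0.24 to -0.38. At the island on chromosome 12, STD, at -0.38 ± 0.072 (SD, n = 3), lay near ERD and not near BLD.

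On the higher side, an island of 13 probes on chromosome 7 (chr7:53651481-53653663) had 0.043, 0.055, 0.12 and 0.052 in ERD, -0.37, -0.17 and -0.075 in BLD, and -0.024, -0.15 and -0.13 in STD. ERD lay above the 6 arrays of the other diets there. An island on chromosome 14 (chr14:62300358-62302039) and an island on chromosome 4 (chr4:8617250-8619442) differed by 0.24 and 0.31. A further island on chromosome 7 (chr7:26099609-26101087) had 0.27, 0.41, 0.37 and 0.25 in ERD, 0.10, 0.077 and 0.028 in BLD, and 0.25, 0.21 and -0.052 in STD. The adjusted p (limma) of these 8 islands was 0.452 to 0.468.

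The trend over the n-3:n-6 ratio named mostly the same islands as the comparison of ERD with STD, whose arrays enter both. Outside that list were an island of 12 probes on chromosome 11 (chr11:23976495-23977980) and an island of 11 on chromosome 9 (chr9:30728994-30730189). The former had 0.55, 0.26, 0.18 and 0.18 in ERD, 0.11, 0.24 and -0.11 in BLD, and -0.12, -0.025 and -0.18 in STD. The latter had -0.63, -0.68, -0.54 and -0.36 in ERD, -0.29, -0.34 and -0.33 in BLD, and -0.23, -0.15 and -0.19 in STD, and its 3 diets did not overlap. Their slopes were 0.075 ± 0.021 and -0.068 ± 0.017 (SE) per doubling of the ratio. The slope with the lowest p was at the island of lowest level on chromosome 1, at -0.084 ± 0.019 (SE; adjusted p = 0.162, limma).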

How the data were processed

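Agilent Feature Extraction 10.7.3.1, per the file headers (9.0 in the submitters' processing notes), gave the spot intensity. The deposited intensity was already background-subtracted and dye-normalized with a linear factor. The deposited log10 ratios of Cy5 over Cy3, as in the authors' value table, were used as an alternative. Other deposited columns are flags and positions (mm9). From the intensities, log2 ratios were formed, flagged outlier spots left out, and arrays centred on the median. Regions were fitted with limma 3.58.1 in R 4.3.3 (lmFit, eBayes, all 10 arrays, no covariate), and the fit was tested on simulated data. Members, lists and tests were chosen with earlier results of these data known.

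Islands were named for most probes, highest and lowest level and widest probe spread, and per comparison for the 4 lowest p in each direction among those whose direction held without each array. No gene names, gene lists or probe sequences were used here, since the gene tables are on another build. Fits of outermost and inner probes were added after seeing the data.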

Additional observations from a re-analysis of the deposited data

Results flagged for a closer look

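Dixon's test was run on 42 groups of 4 arrays, all of ERD, which include the named islands. In 3 of the 42 groups, all at named islands, 1 array lay far from the other 3. Chance alone flags about 1 group in 20, so a count this small is close to it. At the island of 12 probes on chromosome 15 (chr15:36537705-36539544), 1 ERD array lay at -0.66 and the others at -0.54, -0.54 and -0.52. At the island of 16 probes on chromosome 11 (chr11:51669754-51671916), 1 ERD array lay at 0.19 and the others between 0.27 and 0.28. At the island of 13 probes on chromosome 7 (chr7:53651481-53653663), 1 ERD array lay at 0.12 and the others between 0.043 and 0.055. Groups of 3 arrays were not examined in this way.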

How the results depend on the processing

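No long island passed the adjusted threshold in any of the 29 settings for ERD against STD, 30 for BLD against STD, 29 for ERD against BLD and 28 for the trend. With normexp background correction the median difference over long islands was 0.0598 for ERD minus STD and 0.0544 for ERD minus BLD, the level difference between long and shorter regions -0.00768 and the excess of the outer 2 probes at each end over the centre, 0.122 in the main setting, 0.0179. Scaling to 1 spread gave 0.00918 for ERD minus STD. Quantile normalization gave -0.0192 for BLD minus STD and -0.00568 for ERD minus BLD, and loess -0.0105 for the latter. Probes well above background on all arrays gave -0.0595, -0.0673 and 0.00854 for ERD minus STD, BLD minus STD and ERD minus BLD. The median of probes gave -0.0259 for BLD minus STD and -0.0105 for ERD minus BLD. Islands of more than 15 probes gave 0.0402 for BLD minus STD and a level difference of -0.0220. Outermost probes only gave 0.0900 and 0.123 for ERD and BLD minus STD and a level difference of 0.00419, and inner probes only a level difference of -0.0215. With only the first and last probe as the edge, the excess was 0.210, with normexp 0.0358, with scaling 0.200 and with well above background probes 0.180.

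Of 832 values of named islands over the alternatives, 817 kept their direction and 15 reversed. These islands were chosen among those whose direction held without each array, so values from fits without an array could not reverse. The count of 817 is therefore not a measure of stability. By setting, 11 of 32 values reversed with normexp background correction and 4 of 32 with outermost probes only. With normexp, ERD minus STD was -0.062 on chromosome 2 from 173410946 and 0.0085 on chromosome 6 from 118146607. BLD minus STD was then -0.017, -0.15 and -0.11 on chromosome 2 from 84726423, 173410946 and 168590471, -0.057 on chromosome 6 from 71582027, 0.0056 on chromosome 5 from 77738091 and 0.048 on chromosome 8 from 81032362. ERD minus BLD was then 0.0091 on chromosome 18 from 9212093, and the trend -0.0090 on chromosome 2 from 173410946 and 0.00098 on chromosome 6 from 118146607. With outermost probes only, ERD minus STD was 0.25 and the trend 0.047 on chromosome 6 from 52183340, ERD minus BLD 0.20 on chromosome 14 from 13177168 and the trend 0.024 on chromosome 9 from 30728994. The cause was not tested.

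Without each array in turn, the median difference ran from -0.0452 to -0.0141 for ERD minus STD, from -0.00813 to 0.0345 for BLD minus STD and from -0.0651 to -0.0231 for ERD minus BLD. No paired analysis was possible because replicate numbers were given in accession order and pair no samples. The alternative by CpG content was not run, since no sequence of the build was at hand. The number of arrays, 3 or 4 a diet, limits the precision, and probes not well above background were most frequent on STD replicate 3.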
